A study of Mus musculus with 31 samples.

Results

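The expression and translation of 10 genes of the S6 kinase branch of mTORC1 signalling were examined in mouse cortex, out of 20436 gene symbols counted. They were chosen by name, with earlier results of these data known. They were the S6 kinase genes Rps6kb1 and Rps6kb2 and the mTORC1 genes Mtor, Rptor and Mlst8. The other 5 encode S6K1 substrates: Eif4b, Eef2k, Pdcd4, Poldip3 and Irs1. Cortex of mice at postnatal day 29 to 34 was profiled by ribosome profiling, which sequences the mRNA fragments covered by ribosomes (footprints), and by sequencing of polyadenylated mRNA. The 4 genotypes were wild type (WT), Fmr1-deficient (FXS), Rps6kb1-deficient (S6K1) and deficient in both genes (DKO). The strain, the alleles and the sex of the animals are not given in the sources used here, nor is it said whether each library came from a separate animal, so the p-values below measure the spread between these libraries.

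The protein kinase mTOR, bound to the scaffold Raptor (gene Rptor) and to mLST8, forms mTORC1, which responds to growth factors and amino acids. It phosphorylates the S6 kinases S6K1 (Rps6kb1) and S6K2 (Rps6kb2), which in turn phosphorylate ribosomal protein S6 and factors of translation. In neurons this pathway is known for its part in protein synthesis at synapses, and it is reported to be overactive where FMRP, the Fmr1 product, is absent. Phosphorylation itself is not seen in these data, which hold only the amount of each mRNA and the ribosomes on it.

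The mRNA set held 16 libraries, 4 of each genotype, with 12.1 to 17.3 M counts each. The footprint set held 15 libraries, 4 from WT, 5 from FXS and 3 from each Rps6kb1-deficient genotype, at 16.6 to 34.9 M counts each. Levels are given as CPM, counts scaled to library size with TMM factors, which removes library depth but not gene length, so levels are compared between libraries of a gene and not between genes. Translational efficiency (TE) is the footprint change minus the mRNA change on the log2 scale. Markers of cortical excitatory neurons (7 of 7 genes) and interneurons (6 of 6) were present in both assays. Summed footprints of the 7 excitatory markers were lower in S6K1 (1086 to 1188 CPM) than in WT (1245 to 1451). FXS (1077 to 1359) and DKO (932 to 1304) overlapped WT. Summed footprints of 8 oligodendrocyte markers, none of them at 0, were lower in FXS (1795 to 2702 CPM) and DKO (1898 to 2685) than in WT (2804 to 4054), with S6K1 at 2635 to 2869, while their mRNA ranges overlapped. These sums are not corrected for batch. Of single genes, 1.74% (FXS), 9.91% (S6K1) and 16.3% (DKO) had footprints that did not overlap WT. The part of either marker set in the results below was not tested, and in whole cortex fewer cells of a type and less RNA per cell cannot be told apart.

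The annotated starts of the members called below, of Eif4b, which did not pass the test, and of Rps6 for comparison are shown. mTORC1 signalling is known for its control of mRNAs that begin with a 5′ terminal oligopyrimidine tract, as those of ribosomal proteins do. Each line gives 15 bases before the RefSeq start of transcription and 15 after it, on the gene's strand, with the first 5 transcribed bases in capitals (build GRCm38.p6).
Rps6 (chr4:86857353-86857382, minus strand): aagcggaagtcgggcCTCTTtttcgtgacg
Rps6kb1 (chr11:86544793-86544822, minus strand): cgcatgcgccggagcTGAACttgaggagcc
Pdcd4, first start (chr19:53892216-53892245, plus strand): gcagcagctggctgcAGTCCattcctccag
Pdcd4, second start (chr19:53903336-53903365, plus strand): cgccgtcgcccccgtGTTACtgggtagaac
Eif4b (chr15:102073758-102073787, plus strand): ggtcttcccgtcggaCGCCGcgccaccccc
Rps6, the gene of ribosomal protein S6, begins with C followed by 4 bases that are each C or T. That pattern was looked for at the first 5 transcribed bases only, on the transcribed strand. It stood at 823 of 32851 annotated starts (2.51%) and at 0 of 11 annotated starts of the 8 members with an entry. This says only that these letters are not at those annotated starts. At a share of 2.51%, 0 of 11 does not set the members apart from all starts. The starts used in cortex were not mapped here, so an mRNA that begins with such a tract can be missed. Eef2, the gene of elongation factor eEF2, was also looked at for comparison, and its annotated start did not show the pattern.

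All 10 members passed the filter on low counts in both assays. Only Rps6kb1 and Pdcd4 were called by edgeR at an adjusted p under 0.05 in any comparison. In S6K1 against WT, 1 member, the targeted gene Rps6kb1, was called in mRNA, in footprints and in TE. The shares of all genes tested were 0.0211%, 0.00717% and 0.0293%. In DKO against WT, 2 members were called in mRNA, 1 in footprints and 2 in TE, where 5.23%, 0.366% and 4.85% of all genes were called. These were Rps6kb1 in all 3 measures and Pdcd4 in mRNA and TE. Both genotypes are labelled as lacking Rps6kb1, so its calls do not bear on the other members. FXS against WT gave 0 called members by edgeR in mRNA, footprints and TE, where 0.155%, 0.165% and 0.0952% of all genes were called. At an unadjusted p under 0.05 there were 3, 1 and 3 members in that comparison, beside 12.7%, 9.87% and 13.4% of all genes. DESeq2 called 0, 0 and 1 member there, among 201, 110 and 130 genes of all, and limma voom called 0, 0 and 0 members.

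Rps6kb1 encodes S6K1, the kinase that S6K1 and DKO are labelled as lacking (chr11:86498869-86544885). Its mRNA was at 55.5, 43.4, 47.3 and 39.5 CPM in WT and 53.9, 41.0, 44.0 and 42.7 in FXS. It was at 43.7, 32.0, 30.5 and 28.2 CPM in S6K1 and 39.6, 28.9, 34.1 and 28.5 in DKO, each in the order of batches 5 to 8. The DKO libraries lay below all 4 FXS libraries, while DKO and S6K1 each overlapped WT through the batch 5 libraries, which were the highest of every genotype. Within each batch the S6K1 library was below its WT library, by -0.63 to -0.34 on the log2 scale, and the DKO library was below its FXS library, by -0.58 to -0.37. Mean mRNA in S6K1 was 72.4% of WT, and in DKO 72.2% of FXS. The log2 fold change of DKO against FXS was -0.47 ± 0.0768 (SE, adjusted p = 0.0133), beside -0.47 in S6K1 against WT (0.0217). The DKO change from WT was -0.50 (0.00228), a call kept whichever of the 8 libraries was left out. The other mRNA calls were less stable, although their size was not: without the batch 5 libraries the adjusted p was 0.236 for S6K1 against WT and 0.0667 for DKO against FXS, with changes of -0.52 and -0.50, and leaving out 1 library ended the call in 7 of 8 cases and 6 of 8 cases, with changes between -0.53 and -0.43.

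Ribosome footprints separated the genotypes further. Rps6kb1 footprints were at 31.7, 27.7, 30.04 and 26.1 CPM in WT and 29.4, 31.4, 36.3, 34.1 and 31.4 in FXS. They were at 12.8, 7.62 and 10.1 CPM in S6K1 and 11.97, 11.7 and 11.3 in DKO. Every S6K1 and DKO library lay below every WT and FXS library, and DKO and S6K1 overlapped. Groups that do not overlap were seen in 9.91% of all genes for S6K1 against WT, 16.3% for DKO against WT and 3.73% for DKO against FXS. Footprints did not reach 0: the raw counts were 128 to 275 per S6K1 library and 265 to 399 per DKO library, and the counts per gene do not show where on the mRNA these reads lie. DKO against FXS gave a log2 fold change of -1.63 ± 0.128 (SE, adjusted p = 2.68e-05) and S6K1 against WT gave -1.63 (6.85e-05).

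The footprint loss of Rps6kb1 exceeded its mRNA loss in each comparison. TE fell by 1.14 on the log2 scale in DKO against FXS (SE 0.138, adjusted p = 9.01e-05), by 1.16 in S6K1 against WT (0.000214) and by 0.94 in DKO against WT (0.00209). Mean footprint CPM over mean mRNA CPM, a level of translational efficiency, was 0.622 for WT and 0.717 for FXS, but 0.303 for S6K1 and 0.355 for DKO. Among 13654 genes this placed Rps6kb1 at percentile 38.5 in WT and 13.2 in S6K1. The allele is not given, and whether the Rps6kb1 mRNA counted in S6K1 and DKO is the full WT message was not tested. Loss of Fmr1 gave a TE difference of 0.20 for Rps6kb1 (95% interval -0.04 to 0.45, adjusted p = 0.467), so no change was shown, with a rise of up to 1.37-fold inside the interval. The loss of Rps6kb1 TE was called in all alternatives run but the model without a batch term (replicate block), where its adjusted p was 0.347 (S6K1 against WT), 0.0889 (DKO against WT) and 0.256 (DKO against FXS).

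**Figure D1:**
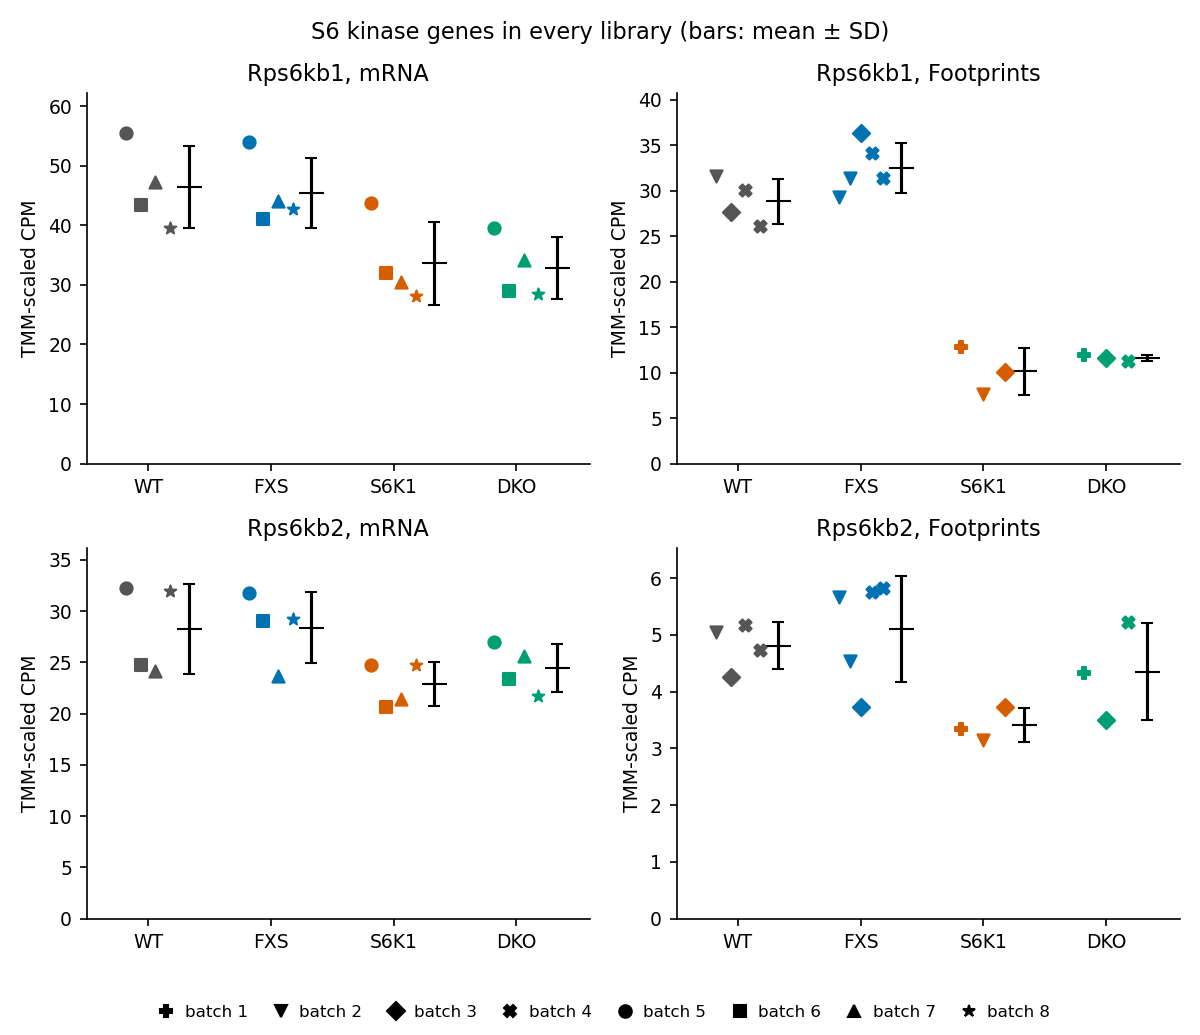
TMM-scaled CPM of Rps6kb1 (top) and Rps6kb2 (bottom) in every mRNA library (left) and footprint library (right), by genotype, with the symbol giving the labelled batch and bars the mean ± SD. Rps6kb1 footprints are at most 12.8 CPM in S6K1 and DKO and at least 26.1 CPM in WT and FXS, and mean Rps6kb2 footprints are 4.81 CPM in WT, 3.41 in S6K1 and 4.35 in DKO.

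Rps6kb2 encodes S6K2, the paralog that shares substrates with S6K1 (chr19:4156792-4163383). It was not called in any comparison, and its mean was lower in S6K1 and in DKO than in WT in both assays. Its mRNA was at 32.2, 24.8, 24.2 and 31.9 CPM in WT, 31.8, 29.01, 23.6 and 29.2 in FXS, 24.7, 20.6, 21.4 and 24.8 in S6K1, and 27.0, 23.4, 25.6 and 21.7 in DKO. The S6K1 and WT ranges overlapped, but the S6K1 library was the lower of the pair in each of the 4 batches, by -0.38 to -0.17 on the log2 scale. How many of all genes keep the same direction in all 4 batches was not counted, here or for the members below. The fitted change was -0.30 ± 0.0978 (SE, 95% interval -0.50 to -0.10, adjusted p = 0.570) in S6K1 and -0.21 (-0.41 to -0.01, 0.210) in DKO, both against WT. Both intervals lay below 0, although neither change passed the test over all genes. In mRNA against WT, 7.37% of all genes in S6K1 and 22.3% in DKO had an unadjusted p under 0.05.

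Footprints of Rps6kb2 were at 5.05, 4.25, 5.18 and 4.74 CPM in WT and at 3.34, 3.15 and 3.74 in S6K1. Every S6K1 library was below every WT library, and 9.91% of all genes were separated in either direction. DKO, at 4.32, 3.51 and 5.23 CPM, overlapped WT. The footprint change was -0.34 (95% interval -0.72 to 0.03, adjusted p = 0.621) in S6K1 and -0.08 (-0.44 to 0.27, 0.821) in DKO, so an increase of more than 1.21-fold lay outside the interval of either genotype. Rps6kb2 carried few ribosomes for its mRNA: the WT ratio of 0.170 stood at percentile 4.53, against a median of 0.785 over all genes.

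The 3 mTORC1 genes were not called in any comparison. Mtor encodes the kinase (chr4:148448582-148557685). Its mRNA was at 86.5, 103, 123 and 120 CPM in WT and at 112, 118, 134 and 132 in FXS. S6K1 held 98.0, 127, 124 and 158 CPM and DKO 110, 126, 129 and 127, so the groups overlapped. Within all 4 batches the mutant library was above the WT library, which the 3 comparisons share and which in batch 5 was the lowest of all 16 libraries, by 0.13 to 0.37 on the log2 scale in FXS, 0.02 to 0.39 in S6K1 and 0.07 to 0.35 in DKO. The fitted changes were 0.21 (adjusted p = 0.251), 0.23 (0.577) and 0.19 (0.126), and the first had an adjusted p of 0.0483 in a model of FXS and WT alone.

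Rptor encodes Raptor, which recruits substrates to mTORC1 (chr11:119602905-119899591). Rptor mRNA was at 52.1, 56.2, 64.0 and 62.9 CPM in WT, 56.2, 70.5, 79.2 and 67.2 in FXS and 61.2, 64.1, 80.3 and 67.3 in DKO. The ranges overlapped, with FXS and DKO above WT inside each of the 4 batches. Its change was 0.21 in FXS (adjusted p = 0.251) and 0.21 in DKO (0.0997), which share the WT libraries, against 0.06 in S6K1 (0.911).

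Footprints of Mtor and Rptor overlapped between WT and every mutant genotype. Mtor footprints ranged from 223 to 274 CPM in WT, 186 to 258 in FXS, 216 to 269 in S6K1 and 198 to 249 in DKO. Rptor footprints ranged from 104 to 123 CPM in WT, 100 to 117 in FXS, 109 to 114 in S6K1 and 96.8 to 111 in DKO. The TE difference from WT was -0.30 ± 0.107 (SE, adjusted p = 0.240) for Mtor and -0.28 ± 0.0994 (0.240) for Rptor in FXS. In DKO it was -0.15 (0.458) for Mtor and -0.29 (0.109) for Rptor. The 95% intervals lay below 0 for both genes in FXS and for Rptor in DKO, but no such difference passed the adjustment over all genes. In TE against WT, 13.4% of all genes in FXS and 24.9% in DKO had an unadjusted p under 0.05.

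Mlst8 encodes mLST8, a stabilising subunit of both mTOR complexes (chr17:24473550-24479114). It was at 16.5 to 20.4 CPM in mRNA of WT and 17.6 to 21.7 over the 3 mutant genotypes. Its footprints were at 32.1 to 38.9 CPM in WT and 31.8 to 41.4 in the mutants, overlapping throughout. Across the 3 mutants against WT, its fold changes stayed between -0.12 and 0.13 on the log2 scale in mRNA, footprints and TE.

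**Figure D2:**
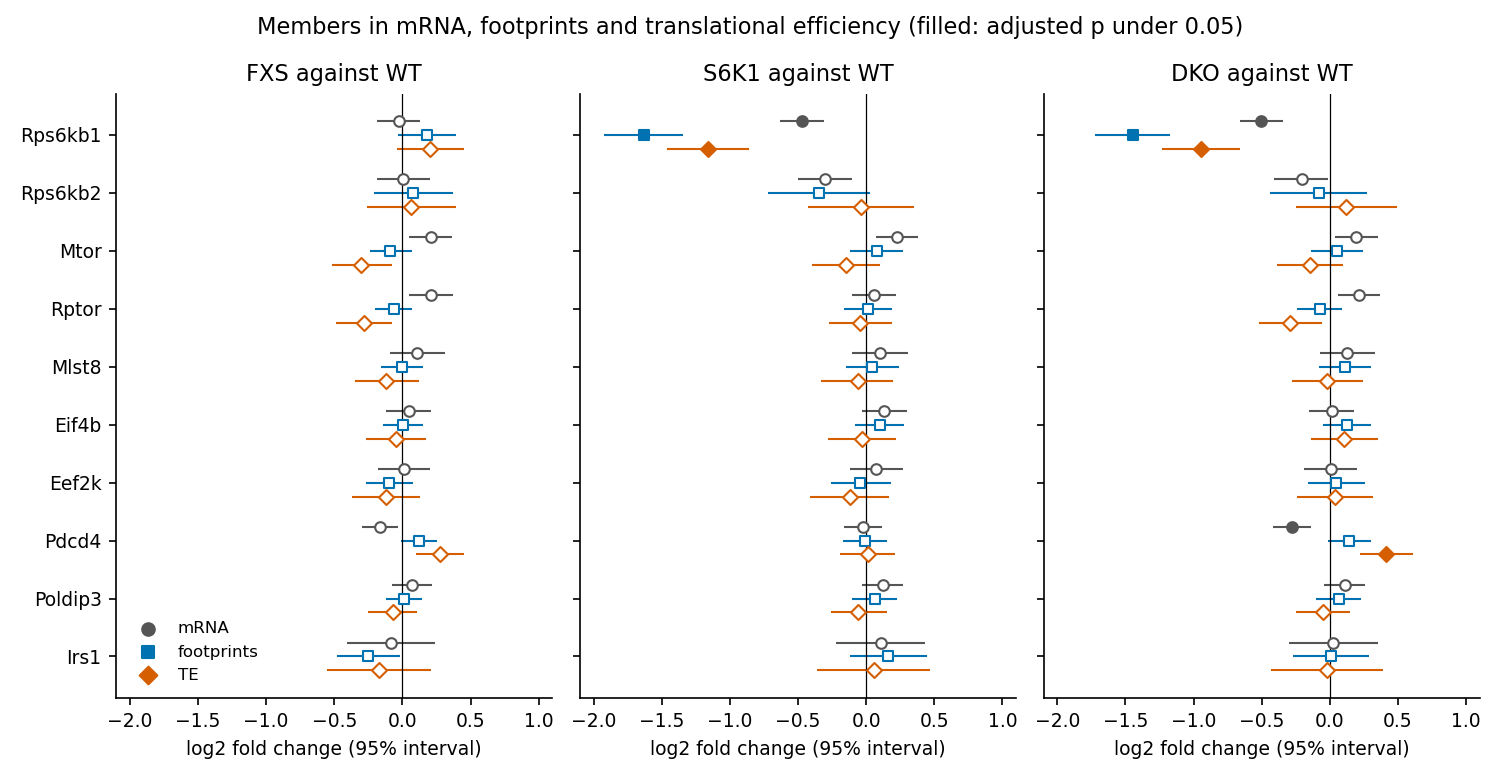
Log2 fold change against WT of the 10 members in FXS (left), S6K1 (middle) and DKO (right), for mRNA (circles), footprints (squares) and TE (diamonds), with bars for the 95% interval and filled symbols for an adjusted p under 0.05. Filled symbols stand only at Rps6kb1 in S6K1 and DKO and at Pdcd4 in DKO, where mRNA is at -0.28 and TE at 0.42.

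Pdcd4 was the only substrate gene called by edgeR, in mRNA and TE of DKO against WT, where 5.23% and 4.85% of all genes were called. It encodes a protein that binds the helicase eIF4A and holds back translation, and its phosphorylation by S6K1 is known to mark it for degradation (chr19:53892231-53937592). In DKO its mRNA was lower than in WT and the ribosomes per mRNA were higher, while its footprints did not pass the test. Pdcd4 mRNA was at 124, 132, 148 and 122 CPM in WT and 141, 129, 127 and 121 in S6K1. It was at 117, 116, 123 and 114 CPM in FXS and 113, 109, 105 and 108 in DKO. The DKO libraries were thus below every library of the other 3 genotypes, a separation seen in 6.15% of all genes for DKO against WT, 2.78% for DKO against FXS and 3.03% for DKO against S6K1. FXS lay between, with its highest library overlapping the lowest of WT and S6K1.

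DKO against WT gave a log2 fold change of -0.28 ± 0.0670 (SE, adjusted p = 0.0199) for Pdcd4 mRNA, and the DKO library was the lower in each of 4 batches, by -0.50 to -0.14. FXS against WT gave -0.17 (95% interval -0.30 to -0.03, adjusted p = 0.305) and S6K1 against WT gave -0.02 (-0.16 to 0.12, 0.973). Against S6K1, which differs from DKO in Fmr1, the DKO change was -0.26 (0.0690 with edgeR, 0.0185 with DESeq2). Against WT, the DKO difference no longer passed in the model lacking a batch term (0.249), nor when RNA libraries were left out in turn: WT replicate 2 (0.0854), WT replicate 3 (0.124), DKO replicate 2 (0.0580) or DKO replicate 3 (0.107), with changes of -0.28 to -0.22.

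Footprints of Pdcd4 were at 200, 235, 232 and 230 CPM in WT and 213, 227, 265, 240 and 255 in FXS. S6K1 held 316, 218 and 217 CPM and DKO 353, 257 and 251. The highest library of S6K1 and of DKO was that of batch 1, which held no WT or FXS library. All DKO libraries lay above all WT libraries, and 16.3% of all genes were separated in either direction. The difference fitted with batch was 0.14 (95% interval -0.01 to 0.30, adjusted p = 0.330). It was 0.16 (0.339) without batch 1.

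TE of Pdcd4 rose in DKO against WT by 0.42 ± 0.0952 on the log2 scale (SE, adjusted p = 0.0216), and by 0.43 without footprint batch 1 (0.0219). Mean footprint CPM per mean mRNA CPM was 1.70 for WT and 2.05 for FXS, then 1.93 for S6K1 and 2.65 for DKO, with the batch 1 libraries included in the last pair. FXS against WT gave a TE difference of 0.28 (95% interval 0.10 to 0.45, adjusted p = 0.198 with edgeR and 0.0485 with DESeq2), and S6K1 against WT gave 0.01 (-0.19 to 0.21, 0.987). The authors' deposited table gives 0.43 (adjusted p 0.0190) for Pdcd4 TE in DKO against WT and 0.27 (0.403) in FXS against WT. With edgeR the DKO difference did not pass in the model lacking a batch term (0.64, 0.0857), in a model of DKO and WT alone (0.0635), and without 1 of 5 libraries: RPF DKO replicate 2 (0.111), RPF WT replicate 2 (0.0674), RNA WT replicate 2 (0.05004), RNA WT replicate 3 (0.0621) or RNA DKO replicate 3 (0.0591).

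**Figure D3:**
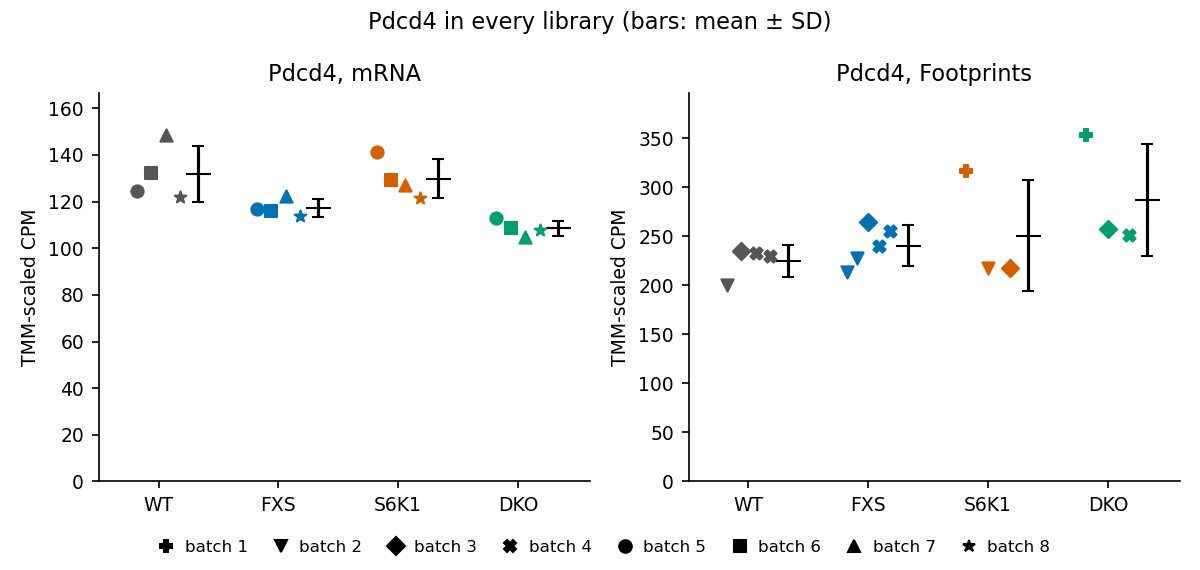
TMM-scaled CPM of Pdcd4 in every mRNA library (left) and footprint library (right), by genotype, with the symbol giving the labelled batch and bars the mean ± SD. The 4 DKO mRNA libraries, at 105 to 113 CPM, are the lowest of all 16, and the batch 1 footprint libraries of S6K1 (316 CPM) and DKO (353 CPM) are the highest of all 15.

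The other 4 substrate genes were not called in any comparison. Eif4b encodes eIF4B, a cofactor of eIF4A (chr15:102073773-102097173). Eif4b mRNA was at 178 to 196 CPM in WT, 184 to 215 in FXS, 178 to 246 in S6K1 and 182 to 195 in DKO. Its footprints were at 171 to 179, 149 to 189, 175 to 176 and 161 to 197 CPM in the same order. The groups overlapped, and every fitted change of Eif4b against WT lay between -0.05 and 0.13 on the log2 scale.

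Eef2k encodes the kinase that inhibits elongation factor eEF2 and that S6K1 restrains (chr7:120842642-120907219). Its mRNA was at 30.9 to 39.5 CPM in WT, 33.8 to 44.2 in FXS, 34.8 to 41.1 in S6K1 and 34.7 to 40.0 in DKO. Footprints were at 20.6, 21.1, 20.8 and 21.7 CPM in WT and 16.8, 18.98 and 19.6 in S6K1. These did not overlap, as in 9.91% of all genes. With batch in the model the difference was -0.04 (95% interval -0.26 to 0.18, adjusted p = 0.952). The lowest S6K1 library was that of batch 1, where the DKO library was also the lowest of its genotype, at 15.97 CPM.

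Poldip3 encodes SKAR, which links S6K1 to newly spliced mRNAs (chr15:83125968-83149378). Poldip3 mRNA was at 43.3 to 51.0 CPM in WT and 45.1 to 56.7 over the mutants, and its footprints at 104 to 123 and 81.0 to 124 CPM. The lowest footprint values were again those of batch 1, at 81.0 CPM in S6K1 and 88.1 in DKO. Changes of Poldip3 against WT stayed between -0.07 and 0.12 on the log2 scale.

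Irs1 encodes the insulin receptor substrate through which S6K1 is known to dampen upstream signalling (chr1:82233105-82291439). It had the least mRNA counts of the members, 78 to 151 per library, at 5.63 to 9.18 CPM over all genotypes. Its footprints were at 19.05, 22.5, 21.7 and 27.3 CPM in WT and 18.2, 19.7, 14.9, 21.5 and 20.6 in FXS, with overlap. The footprint difference of FXS from WT was -0.25 ± 0.107 (SE, 95% interval -0.48 to -0.02, adjusted p = 0.452). Its mRNA intervals were the widest of the 10 genes, from -0.41 to 0.24 in FXS and -0.22 to 0.43 in S6K1, so a rise of up to 1.35-fold in S6K1 lay inside the interval.

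The members differed in how many footprints they carried for their mRNA, an order that is not corrected for the length of the coding sequence relative to the transcript. In WT, 6 of the 10 stood at percentile 85.6 or higher among 13654 genes: Irs1 (ratio 3.20), Poldip3 (2.46), Mtor (2.29), Mlst8 (1.98), Rptor (1.95) and Pdcd4 (1.70). Eif4b stood near the middle (0.931), with Rps6kb1 (0.622), Eef2k (0.567) and Rps6kb2 (0.170) below the median of 0.785. In this order the neighbours Mlst8 and Rptor differed by 0.98 against 0.97 on the log2 scale. Places in this order were not tested. Rps6kb1 and Pdcd4 are the members whose TE change, fitted with batch by edgeR, had an adjusted p under 0.05.

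**Figure D4:**
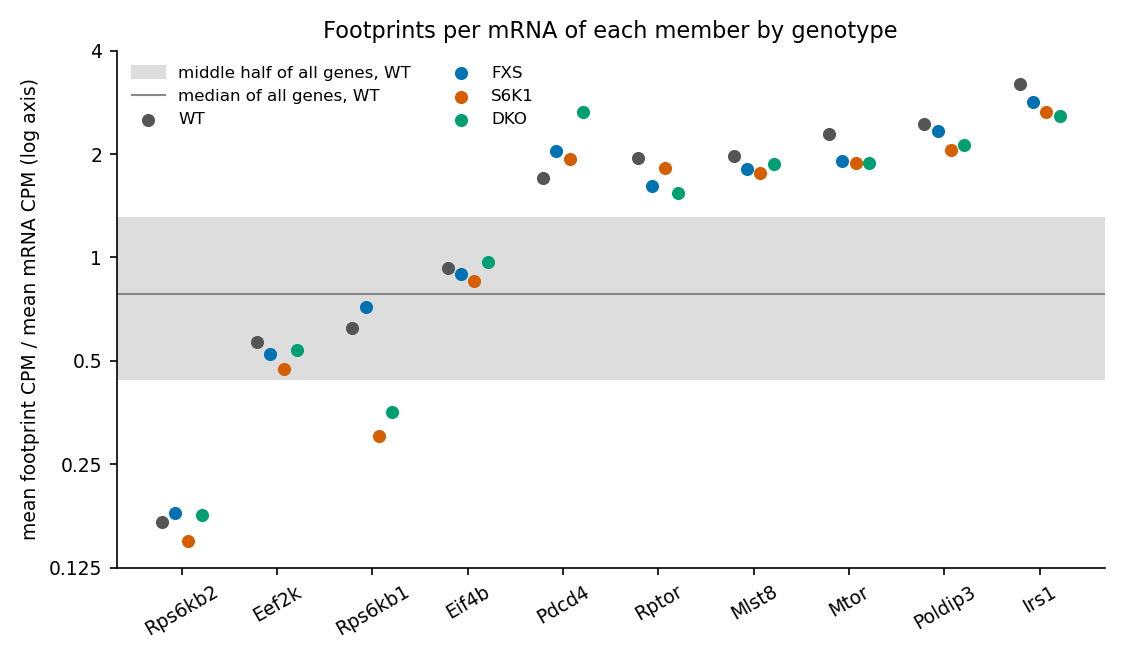
Mean footprint CPM divided by mean mRNA CPM for each member (log axis) in the 4 genotypes, beside the median and middle 50% of all 13654 genes in WT (line and band). Rps6kb1 drops from 0.622 in WT to 0.303 in S6K1 and 0.355 in DKO, Pdcd4 moves from 1.70 in WT to 2.65 in DKO, and Rps6kb2 lies lowest in every genotype. These ratios are not corrected for batch. The Pdcd4 TE change fitted with batch is 0.42 on the log2 scale in DKO against WT.

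DKO against FXS shows what the absence of Rps6kb1 changes where Fmr1 is also absent. Rps6kb1 was the only member called, in mRNA, footprints and TE, where 0.0281%, 0.0143% and 0.0146% of all genes were called. The other 9 members lay between -0.21 (Rps6kb2) and 0.11 (Irs1) in mRNA, between -0.16 (Rps6kb2) and 0.26 (Irs1) in footprints, and between -0.01 (Rptor) and 0.16 (Eef2k, with Mtor also at 0.16) in TE. Mtor and Rptor mRNA differed by -0.01 (95% interval -0.17 to 0.14) and 0.00 (-0.15 to 0.16).

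DKO against S6K1 shows the reverse case, the absence of Fmr1 where Rps6kb1 is absent. With edgeR 0 members were called in mRNA, footprints and TE, where 0.387%, 0.00717% and 0.00732% of all genes were called. There were 1, 0 and 2 members at an unadjusted p under 0.05, beside 14.8%, 8.67% and 14.6% of all genes. DESeq2 called 1, 0 and 1 member (Pdcd4 in both), among 353, 20 and 24 genes of all, and limma voom called 0, 0 and 0 members. Rps6kb1 itself differed by -0.03 in mRNA, 0.19 in footprints (95% interval -0.10 to 0.47) and 0.21 in TE (-0.08 to 0.51). Pdcd4 TE differed by 0.40 (0.21 to 0.60, adjusted p = 0.201).

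Whether the effect of losing Fmr1 differs with and without Rps6kb1 was tested as an interaction, DKO minus S6K1 set against FXS minus WT. With edgeR no gene passed in mRNA, footprints or TE (0% of all genes tested, with 497, 428 and 565 below 0.05 before adjustment). DESeq2 passed 0, 5 and 2 genes and limma voom 0, 0 and 0. Of the members, 1, 0 and 0 had an unadjusted p under 0.05, and DESeq2 and limma voom called 0 members in each. Mtor had the largest interactions, -0.24 in mRNA (95% interval -0.46 to -0.02) and 0.31 in TE (-0.03 to 0.64). For Pdcd4 the interaction was -0.09 in mRNA (-0.29 to 0.11) and 0.13 in TE (-0.14 to 0.39). DKO set directly against FXS gave -0.11 for Pdcd4 mRNA (-0.25 to 0.03, adjusted p = 0.604) and 0.14 for its TE (-0.06 to 0.33, 0.690), so DKO was not shown to differ from FXS in either. The median interaction over the 10 members was -0.082 in mRNA, 0.044 in footprints and 0.111 in TE, beside 0.002, 0.008 and 0.011 over all genes tested. These medians were not tested.

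Around the members, 75 other genes of the pathway were tested: 21 upstream of mTORC1, 29 of its amino acid branch, 4 of mTORC2, 15 further outputs and 6 kinases of the related RSK and MSK families. With edgeR none was called in FXS, S6K1 or the interaction, nor in DKO against FXS or S6K1, where 0 to 14 of the 75 had an unadjusted p under 0.05, beside 3.07% to 14.8% of all genes. The 14 were in mRNA of DKO against FXS, where 9.81% of all genes had such a p. Other edgeR settings called 2 in mRNA of FXS against WT (genotypes compared alone), 1 in TE of FXS against WT (without RPF FXS replicate 4) and 1 in mRNA of DKO against S6K1 (RLE factors, no filter, or without RNA S6K1 replicate 1, S6K1 replicate 4 or DKO replicate 1). In those comparisons limma voom called 0 throughout, and DESeq2 called 1 in TE in FXS against WT, 1 in mRNA in DKO against FXS, and 2 in mRNA and 1 in footprints in DKO against S6K1. In DKO against WT, 3 were called in mRNA (4% of 75, against 5.23% of all genes), 2 higher and 1 lower, and 3 in TE (4%, against 4.85%), 2 higher and 1 lower. These shares are near or below those of all genes. In footprints edgeR called 0, with 12 of the 75 at an unadjusted p under 0.05 beside 17.1% of all genes, DESeq2 called 3 of the 75 among 290 genes of all, and limma voom called 0 of the 75.

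The mRNAs called in DKO against WT were those of Akt1s1, an inhibitory mTORC1 subunit (0.34, adjusted p = 0.0421), of Lamtor1, which anchors the Ragulator complex to the lysosome (0.30, 0.0225), and of the Rag GTPase gene Rragc (-0.34, 0.0270). Lamtor1 mRNA was at 95.9 to 98.7 CPM in DKO and 74.0 to 83.9 in WT, and Rragc at 56.2 to 74.98 and 72.8 to 86.0. TE was higher for the Rag genes Rragc (0.50, 0.0320) and Rragd (0.50, 0.0434) and lower for Tfeb (-1.03, 0.0113), a transcription factor of lysosomal genes that mTORC1 keeps out of the nucleus. Tfeb mRNA was at 9.17 to 12.7 CPM in DKO and 8.08 to 10.4 in WT, and its footprints were at 4.84 to 7.23 and 9.04 to 13.3. The Tfeb footprint ranges did not overlap, a separation seen in 16.3% of all genes for DKO against WT. The fitted Tfeb footprint change was not called by edgeR (adjusted p = 0.0721). Each of these calls was lost in the model lacking a batch term, at an adjusted p from 0.0620 (Tfeb) to 0.345 (Rragc mRNA). Each was also lost in models that left out 1 library, with the highest adjusted p between 0.0748 (Tfeb, without RPF DKO replicate 2) and 0.211 (Akt1s1, without RNA WT replicate 3). Akt1s1 was lost as well with limma voom (0.0532) and with DKO and WT alone (0.115), and Rragd with DKO and WT alone (0.0884), without mRNA batch 5 (0.0615) or without footprint batch 1 (0.0515). Rps6, whose start is shown above, had TE differences from WT of 0.25 in FXS (0.339), 0.21 in S6K1 (0.771) and 0.23 in DKO (0.253).

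The genes whose levels ran most like those of Rps6kb1 were found by Pearson correlation of log2 CPM after removal of batch. Over the 16 mRNA libraries they were Ramp2 (r = 0.942), Slfn8 (0.894) and Epx (0.865), which all lie on chromosome 11, at 14.75, 3.5 and 1.37 Mb from Rps6kb1. Slfn8 and Epx are rare in cortex, at 1.28 and 0.883 CPM in WT mRNA and 0.209 and 0.0167 in S6K1. Over the 15 footprint libraries they were Slfn8 (0.949), Tmem180 on chromosome 19 (0.922) and Slc19a3 on chromosome 1 (0.912). These are the highest of 14214 and 13952 correlations across libraries that share genotype, so they describe the libraries only. By rank correlation Ramp2 stayed first in mRNA (0.909), while none of the 3 footprint genes stayed among the first 3. Among the members, Rps6kb2 had the highest correlation with Rps6kb1, 0.71 in mRNA and 0.678 in footprints, or 0.606 and 0.571 by rank. Irs1 had the lowest in footprints, -0.686, or -0.804 by rank.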

How the data were processed

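The authors' deposited tables of raw counts per gene symbol (1 column per library, labelled as counts over coding sequence) were the starting point. Per the submitters' processing notes, cutadapt 2.0, Bowtie2, TopHat2 and RSEM were used with build mm10; their roles and the annotation are not given in the sources used here. The authors' deposited comparison tables give, per the file headers, log2 fold changes, their errors and both raw and adjusted p-values; the tool is not stated, and they are quoted only where named.

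Genotype and batch came from the labels. Differences were tested with edgeR 4.0.16 (R 4.3.3; quasi-likelihood F-test, filterByExpr on genotype, TMM, robust dispersion), with batch in the model as labelled and all 4 genotypes fitted together. mRNA libraries of batches 5 to 8 held each genotype once; footprint batches 1 to 4 were unbalanced. This tested 14215 genes in mRNA, 13953 in footprints and 13654 in TE (footprint minus mRNA contrast in 1 model of 31 libraries, batch nested in assay). P-values were adjusted by Benjamini-Hochberg over all genes tested, and a gene was called under 0.05. Standard errors and 95% intervals come from the quasi-likelihood F. Replicates of a group differed by at least 4.67 chi-square per degree of freedom, so none repeats another. Totals of 12.1 to 34.9 M counts per library gave members between 53 and 8820 counts.

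Alternatives were DESeq2 1.42.0, limma 3.58.1 voom, RLE scaling, no filter, no batch term, genotypes compared alone, each library left out, mRNA batch 5 left out and, added after seeing the data, footprint batch 1 left out. The scripts were tested on simulated data. Members always named were the 10 genes; of the pathway lists, genes called; of genes like Rps6kb1, the 3 of highest correlation per assay. Members, lists and markers were chosen with earlier results of these data known. Gene and start positions, and sequences, are RefSeq's for GRCm38.p6, the build also called mm10; in the gene lists, Castor1 and Castor2 were matched by synonym and Samtor was not matched. No length of coding sequence was used.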

Additional observations from a re-analysis of the deposited data

Results flagged for a closer look

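Of 60 groups of 4 or 5 libraries (10 members by genotype and assay), 5 held a library that stood apart from the others of its group by Dixon's criterion at 95%, and chance gives about 1 in 20. Mtor mRNA was lowest in DKO replicate 1, at 110.0 CPM, with the next library at 126, and Eef2k mRNA was lowest in WT replicate 1, at 30.9 CPM, with the next at 39.1. Both are libraries of batch 5. Eif4b mRNA was highest in FXS replicate 4, at 215 CPM, with the next at 189. Mtor footprints were lowest in FXS replicate 3, at 186 CPM, with the next at 241. Pdcd4 footprints were lowest in WT replicate 1, at 200 CPM (199.9), with the next at 230.0. That WT library is of batch 2, in which the S6K1 library held 218 CPM. Groups of 3 libraries, S6K1 and DKO in footprints, were not examined in this way.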

How the results depend on the processing

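Over 3450 refitted log2 fold changes of the members, 3411 kept their side of the threshold, 35 lost a call, 4 gained one and 0 reversed while called. At most 2 of the 10 members were called per measure and comparison, so most of the 3450 were of changes not called as reported. The 3411 therefore do not measure how stable the calls are. Losses occurred mainly when 1 library was left out. In the model without a batch term (replicate block), 0 members were called in mRNA for S6K1 against WT, DKO against WT and DKO against FXS and 0 in TE in the same 3 comparisons. Its Rps6kb1 changes were -0.47, -0.50 and -0.47 in mRNA and -1.02, -0.81 and -1.01 in TE. In this model 2 genes of all were called in mRNA in DKO against WT, in place of 743, and 2 in TE, in place of 662. Without mRNA batch 5, 0 members were called in mRNA in S6K1 against WT (Rps6kb1 -0.52) and in DKO against FXS (-0.50). With the genotypes compared alone, 0 were called there (-0.49 and -0.48), 1 in mRNA in FXS against WT (Mtor, 0.21) and 1 in TE in DKO against WT. DESeq2 called 1 member, Pdcd4, in mRNA and in TE in DKO against S6K1 and in TE in FXS against WT. Leaving out each library in turn gave 0 to 1 called member in mRNA for S6K1 against WT and for DKO against FXS, and 1 to 2 in mRNA and in TE in DKO against WT. The Rps6kb1 mRNA change then ran from -0.53 to -0.43 in S6K1 against WT, losing its call for 7 of 8 libraries with an adjusted p of up to 0.190 (S6K1 replicate 3), and from -0.51 to -0.43 in DKO against FXS, losing it for 6 of 8. Rps6kb1 footprints kept their call in each of 14 alternatives, for S6K1 and for DKO relative to WT. Scaling to library totals moved 1 mean by more than its SD, Eif4b footprints in S6K1 (175.6 to 174.7 CPM). Rps6kb2 and Irs1, with 53 to 181 footprint and 78 to 151 mRNA counts per library, are limited by depth most. Counts over all genes moved most in the following comparisons. In DKO against WT they ran from 2 to 1093 in mRNA (743 as reported), 2 to 290 in footprints (51) and 2 to 1141 in TE (662). In FXS against WT they ran from 2 to 446 in mRNA (22), 1 to 110 in footprints (23) and 1 to 130 in TE (13). In DKO against S6K1 they ran from 1 to 392 in mRNA (55), 1 to 20 in footprints (1) and 0 to 24 in TE (1). S6K1 against WT gave 0 to 5 in mRNA (3), 1 to 40 in footprints (1) and 0 to 12 in TE (4), and DKO against FXS gave 0 to 27 (4), 1 to 6 (2) and 0 to 9 (2).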

Other observations

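S6K1 and DKO had 3 footprint libraries each, so a library often stands at an edge of its genotype. How often was not counted over all genes. Batch 1 of the footprint libraries, which held 1 S6K1 and 1 DKO library, stood at an edge of its genotype for several members at once. In both genotypes its library was the highest for Pdcd4 (316 and 353 CPM) and Rps6kb1 (12.8 and 11.97 CPM) and the lowest for Mtor (216 and 198 CPM), Mlst8 (31.8 and 32.5), Eef2k (16.8 and 15.97), Poldip3 (81.0 and 88.1) and Irs1 (12.5 and 12.3). Means over all S6K1 or DKO footprint libraries therefore include a library with no WT or FXS library of its batch, and without it the Pdcd4 footprint difference of DKO from WT was 0.16 and that of S6K1 from WT was -0.01.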
